A study of Mus musculus with 2 samples.

Results

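Mir143 and Mir145a are neighbouring microRNA genes of the smooth muscle lineage, and their reads were followed here in mouse calf muscle. The pair was found by gene symbol in the GENCODE M21 annotation, and both symbols matched a row of the count tables, which makes 2 of 2202 microRNA genes. The material was gastrocnemius of female B6CASTF1/J mice, a cross between the strains C57BL/6 and CAST/EiJ, aged 36 days and untreated as far as the labels say. There was 1 group of 2 libraries, biological replicates 2 and 1, and small RNA was counted from total RNA. The replicates are described as separate females but carry the same donor identifier, so the spread between them may be technical. No condition was compared, and each difference below sets replicate 2 against replicate 1.

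Mir143 and Mir145a are transcribed together, and each hairpin is cut into a mature microRNA of its own seed. Serum response factor with its partner myocardin switches the pair on, and mature miR-145 in turn lowers Klf4 and Klf5, factors that hold smooth muscle cells out of the contractile state. In skeletal muscle the contractile walls of arterioles are the best known site of both microRNAs, while pericytes and fibroblasts also make them and muscle fibres do so far less.

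In the mm10 build both hairpins are on the minus strand of chromosome 18. Mir143 (ENSMUSG00000065445.3) runs from 61649196 to 61649258 and Mir145a (ENSMUSG00000065592.2) from 61647825 to 61647894, 1301 bases downstream. Neither overlaps another annotated gene of M21. Carmn, a long non-coding RNA gene known from the cardiovascular lineages, lies on the same strand at 61649625 to 61665537, and 366 bases separate it from Mir143. The lincRNA gene Bvht lies on the other strand at 61639542 to 61647472. Within 500 kb the count tables hold 2 further microRNA genes, Mir378a at 251 kb and Gm25301 opposite it. Mir378a was the most abundant gene of the tables, with 299706 reads in replicate 2 and 277206 in replicate 1, and Gm25301 had 0 reads in both.

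MicroRNA genes received 2078101 reads in replicate 2 and 1593787 in replicate 1. Reads with several genomic matches are in no gene's count and were 77.6% of the library in replicate 2 and 75.4% in replicate 1. Levels below are therefore shares of uniquely placed reads, and whether reads of Mir143 or Mir145a are among the multiply matched ones was not tested. Reads in at least 1 library were found for 561 genes, and 273 reached 10 reads in each, the minimum set for testing. Of 10 skeletal muscle fibre genes found, all had reads and 7 passed that minimum, led by Mir206, so the labelled tissue was represented.

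Mir143 was among the most abundant microRNA genes of this muscle. It had 126842 reads in replicate 2 and 188067 in replicate 1. These were 6.10% of gene-assigned reads in replicate 2 (exact Clopper-Pearson 95% interval 6.07 to 6.14) and 11.8% in replicate 1 (11.75 to 11.85), with a mean of 8.95% ± 4.03 (SD, n = 2). It held rank 5 among all genes in replicate 2 and rank 2 in replicate 1.

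Mir145a was present at a far lower level. It had 3130 reads in replicate 2 and 3652 in replicate 1. Its share was 0.151% in replicate 2 (interval 0.145 to 0.156) and 0.229% in replicate 1 (0.222 to 0.237), and the mean was 0.190% ± 0.0555 (SD, n = 2). It held rank 49 in replicate 2 and rank 43 in replicate 1. The intervals cover counting error only, since PCR copies of a read cannot be recognised, and they are much narrower than the gap between the libraries for both genes.

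Together the pair held 6.25% of gene-assigned reads in replicate 2 and 12.03% in replicate 1. Mir145a supplied 2.41% of the pair's reads in replicate 2 and 1.90% in replicate 1. Against a total that includes multiply matched reads, the pair's counted reads came to 1.000% in replicate 2 and 2.18% in replicate 1.

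Strand made next to no difference to the read counts of either gene. On the strand opposite to Mir143 there were 0 reads in both libraries, and opposite to Mir145a there were 1 in replicate 2 and 0 in replicate 1. Counted without regard to strand, Mir143 had the same 126842 and 188067 reads and Mir145a had 3131 and 3652. Of the 273 tested genes, 249 kept their unstranded counts within 1% in this way. The other 24, Mir126a and Mir378a among them, lost over 99% of their reads, and all 24 overlap a microRNA gene on the other strand, as none of the 249 does. Mir145b, a gene of similar name 7374 kb away on the same chromosome, had 1 read in replicate 2 and 0 in replicate 1. A count of 0 allows up to 3 counts, or 1.88 counts per 1000000 gene-assigned reads (CPM) in replicate 1.

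In the order of mean levels, Mir143 held rank 3. Above it were Mir378a, with 14.4% of reads in replicate 2 and 17.4% in replicate 1, and the endothelial Mir126a, with 11.3% and 8.82%. Below it were Mirlet7g with 7.50% and 5.75%, Mirlet7i with 5.36% and 5.20%, and the skeletal muscle gene Mir206 with 6.70% and 2.06%. The values of Mir143 overlapped those of Mir126a, Mirlet7g and Mir206 across the libraries, so its place among these is not fixed. They did not overlap those of Mir378a, which was higher in both libraries, or Mirlet7i, which was lower in both.

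Mir145a stood at rank 47 by mean CPM, with 1506 CPM in replicate 2 and 2291 CPM in replicate 1. Its nearest genes were Mir17, Mir195a and Mir29a above and Mir532, Mir196a-2 and Mir144 below, with mean levels between 1692 and 2013 CPM. All 6 overlapped Mir145a across the libraries, so 2 libraries do not fix its place among them. Only Mir17 kept the same side of Mir145a within each library, above it with 1655 CPM in replicate 2 and 2370 CPM in replicate 1. Mir196a-2 was the steadiest of these 7 genes, with 1633 CPM in replicate 2 and 1759 CPM in replicate 1.

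**Figure D1:**
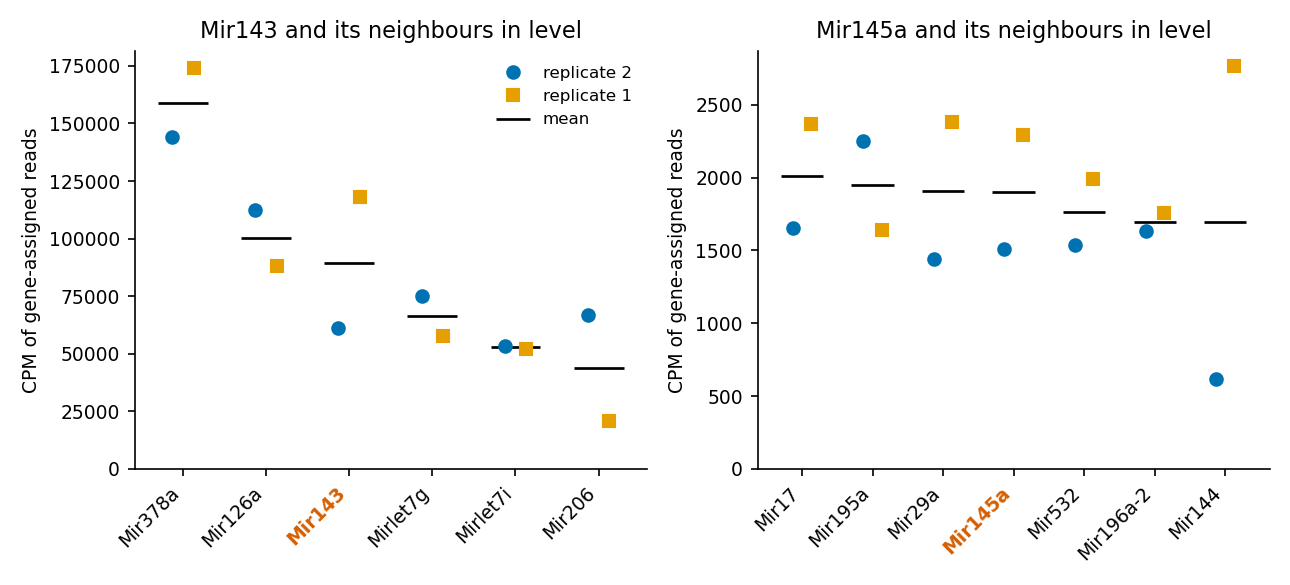
CPM of gene-assigned reads (linear axis from 0) for Mir143 (left) and Mir145a (right) beside the genes next to them in mean level; circles are replicate 2, squares replicate 1 and bars the mean of both. Replicate 1 is higher for both Mir143 (61038 CPM in replicate 2, 118000 in replicate 1) and Mir145a (1506 and 2291 CPM).

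Both genes were lower in replicate 2. Libraries were scaled with trimmed-mean factors (TMM), and a two-sided exact binomial test asked whether the reads of a gene divided as the scaled sizes would give. It compares these libraries only and knows counting error alone. Mir143 had a fold of 0.542 in replicate 2 over replicate 1 (95% counting interval 0.538 to 0.546), which is -0.88 on the log2 scale, and its p was below the smallest value kept, 1e-300. Mir145a had a fold of 0.689 (0.656 to 0.722), or -0.54 on the log2 scale, with a Benjamini-Hochberg adjusted p of 3.11e-52 in this exact test. The test called 63.0% of the 273 genes in either direction, 33.3% as higher and 29.7% as lower in replicate 2, a division that moved to 67 higher and 108 lower genes with the members' reads out of the library sizes. Both members were among the lower genes, and against that background the call by itself sets neither gene apart.

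The median log2 fold over all tested genes was 0.02 and the median of its absolute value 0.36. Larger absolute folds than that of Mir143 were seen for 37 genes (13.6%), and larger ones than that of Mir145a for 94 (34.4%). The coefficient of variation between the libraries was 0.450 for Mir143 and 0.292 for Mir145a, on either side of the 0.335 that edgeR estimated as common to all genes. At that common dispersion, edgeR's exact test gave both members an adjusted p of 1 and called 1.47% of the genes. That dispersion comes from the same libraries and holds their difference.

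In share of reads, Mir143 had the largest change of all tested genes, a difference of -5.70 percentage points in replicate 2 against replicate 1. Mir206 came next with 4.64 points, followed by Mir378a with -2.97, Mir451a with -2.62 and Mir126a with 2.43. Mir145a differed by -0.0785 points. Shares sum to the whole library, so part of any gene's change mirrors that of others. With the members' own reads taken out of the library size, the folds were 0.485 for Mir143 and 0.617 for Mir145a, against a median log2 fold of -0.14 over all genes under that scaling.

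**Figure D2:**
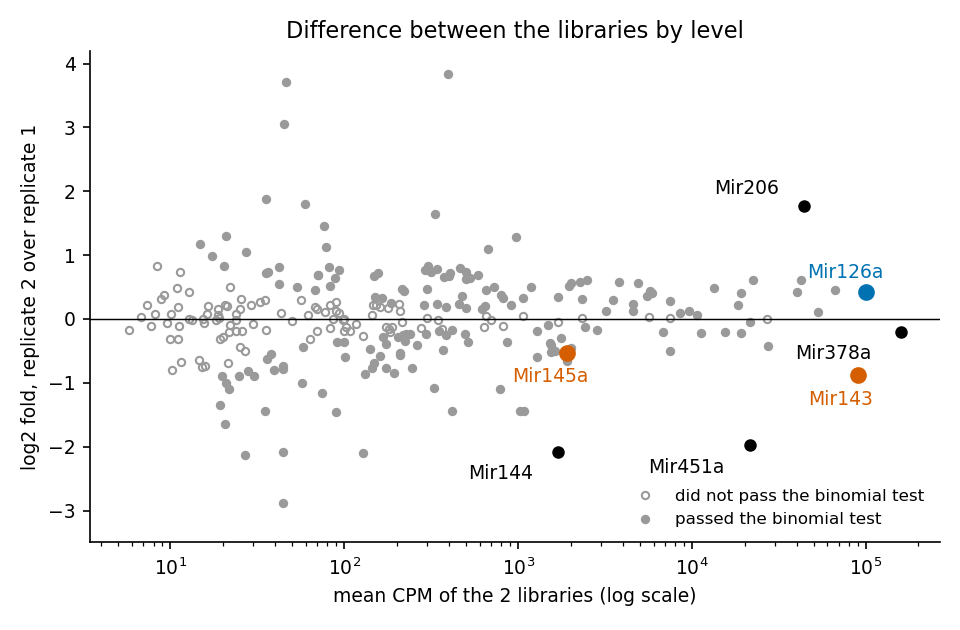
Log2 fold of replicate 2 over replicate 1 (vertical) against mean CPM on a log axis (horizontal) for the 273 tested genes; filled points passed the binomial test and open ones did not. Mir143 and Mir145a lie at -0.88 and -0.54, below the zero line, while Mir126a at a level like that of Mir143 lies at 0.42.

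The genes with the most similar fold were sought among 78 other genes averaging 1000 reads or more, by the absolute difference of log2 folds over the 2 libraries. Nearest to Mir143 were Mir106b (fold 0.468, difference 0.21), Mir29a (0.634, 0.23) and Mir20a (0.663, 0.29). The counting intervals of these folds do not overlap that of Mir143. Nearest to Mir145a were Mir15a (fold 0.701, difference 0.03), Mir21a (0.704, 0.03) and Mir93 (0.706, 0.04), and their counting intervals overlap that of Mir145a.

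Mature sequences of these genes (RefSeq, GRCm38.p6) are shown to compare their seeds, bases 2 to 8 in capitals, with the endothelial Mir126a as a contrast. The arm usually reported as the major product is given, because the tables count whole hairpins.
miR-106b-5p: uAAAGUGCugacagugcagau
miR-20a-5p: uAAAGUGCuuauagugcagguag
miR-93-5p: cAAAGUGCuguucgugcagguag
miR-29a-3p: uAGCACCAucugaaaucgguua
miR-15a-5p: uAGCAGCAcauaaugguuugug
miR-21a-5p: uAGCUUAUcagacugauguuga
miR-126a-3p: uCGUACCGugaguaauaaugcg
The first 3 share a seed, which is that of the miR-17 family, and each of the remaining 4 has its own. These genes were picked by their fold, so the shared seed is a description of the list and no test was made of it.

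Mir143 exceeded Mir145a by a wide margin in both libraries, although the genes are transcribed together. There were 40.5 reads of Mir143 for each read of Mir145a in replicate 2 and 51.5 in replicate 1. Per annotated hairpin base, with lengths of 63 and 70 bases, the ratios were 45.03 and 57.2. On the log2 scale the read ratio was 5.34 in replicate 2 and 5.69 in replicate 1, with a mean of 5.51 ± 0.24 (SD, n = 2). It is a ratio of counted reads, as the efficiency of adapter joining depends on the sequence.

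The ratio itself changed between the libraries. In replicate 2 it was 0.787 of that in replicate 1 (95% interval 0.750 to 0.826, two-sided Fisher's exact test on the 4 counts, p = 3.34e-22), because Mir143 was lower by more than Mir145a. This comparison needs no scaling and covers counting error only. Among 79 pairs of adjacent microRNA genes on the same strand with starts at most 10 kb apart, the median change of the ratio in either direction was 0.38 (log2). The change of -0.35 for Mir143 over Mir145a was smaller than that of 45 of the other pairs.

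The imbalance within the pair was large beside those of other neighbours. The median log2 ratio of the higher over the lower member was 2.62 over the 79 pairs, with a range of 0.01 to 11.15, and 11 pairs exceeded Mir143 over Mir145a. The widest were Mir206 over Mir133b (11.15 ± 1.20), Mir27b over Mir24-1 (7.89 ± 0.75) and Mir29a over Mir29b-1 (7.38 ± 0.59). The narrowest were Mir15a over Mir16-1 (0.01 ± 0.10), Mir495 over Mir543 (0.06 ± 0.42) and Mir376b over Mir376a (0.18 ± 0.13), each as mean log2 ratio ± SD over 2 libraries. Some lower members, such as Mir24-1, give the same mature microRNA as another locus, and how many of their reads were multiply matched was not tested. Pairs of a cluster share genes and are not independent.

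**Figure D3:**
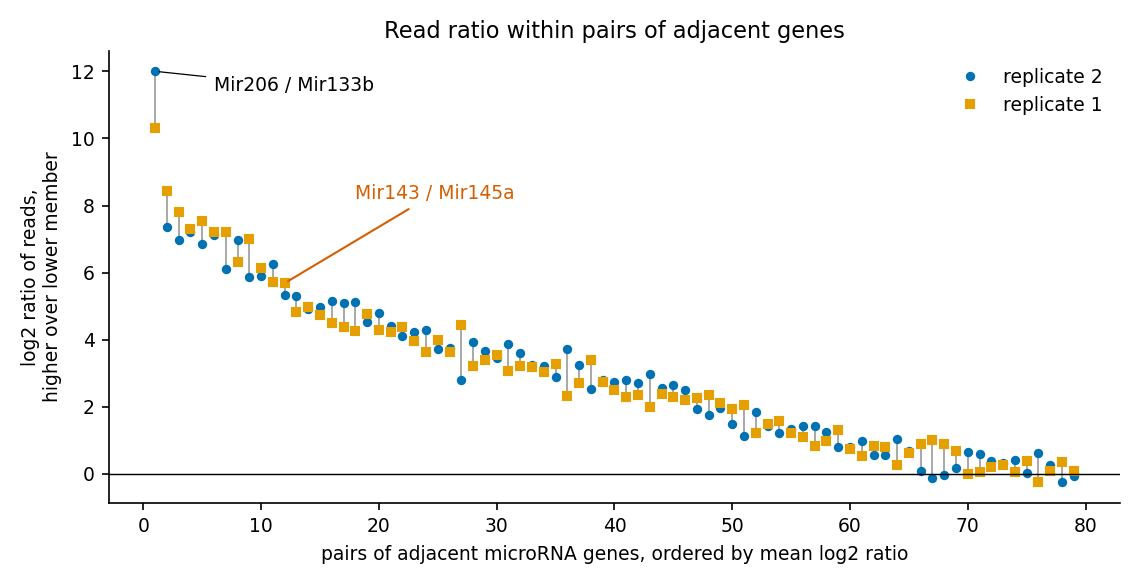
Log2 ratio of reads, higher over lower member (vertical), for 79 pairs of adjacent microRNA genes ordered by their mean (horizontal); circles are replicate 2, squares replicate 1. Mir143 over Mir145a is twelfth in the order, at 5.34 in replicate 2 and 5.69 in replicate 1.

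The nearest detected neighbour beyond the pair moved the same way by less. Mir378a, in an intron of the metabolic coactivator gene Ppargc1b, had a fold of 0.869 (0.864 to 0.873), and it too was called lower by the binomial test. Its fold interval lies above those of both members.

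Vascular and blood markers differed between the libraries in both directions. Mir126a, the endothelial microRNA from an intron of Egfl7, drew 233890 reads in replicate 2 against 140627 in replicate 1, with a fold of 1.34 (1.33 to 1.35). Reads of Mir143 per read of Mir126a were 0.542 in replicate 2 and 1.34 in replicate 1, so the order of these vessel-wall microRNAs differed between the libraries. That ratio in replicate 2 was 0.406 of that in replicate 1 (95% counting interval 0.402 to 0.409). For Mir145a over Mir126a the change was 0.515 (0.491 to 0.541). In bulk tissue, fewer cells of a type and less RNA per cell cannot be told apart.

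Of the 4 endothelial genes listed, 3 passed the minimum. Mir126a was higher and 2 did not pass the binomial test, beside 33.3% higher and 29.7% lower over all genes. The median log2 fold of the 3 was -0.01 against 0.02 over all genes. Mir221, with 698 reads in replicate 2 and 565 in replicate 1, had a fold of 0.993 (0.887 to 1.11). The erythroid pair was lower in replicate 2 by more than the smooth muscle pair, with folds of 0.253 for Mir451a (0.249 to 0.258) and 0.235 for Mir144 (0.221 to 0.250). These erythroid genes held 0.898% of reads in replicate 2 and 3.73% in replicate 1. Mir486, listed here with the muscle fibre genes but shared with red cells, went the other way, with a fold of 1.26 (1.18 to 1.34). Whether the amount of blood in the sample had a part in the folds of Mir143 and Mir145a was not tested.

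Markers of other stromal and muscle cells went in both directions. Over all tested genes 33.3% were called higher and 29.7% lower, which is the background for each count below. Of 3 tested mesenchymal genes, Mir214 was higher with a fold of 1.57 (1.43 to 1.72), Mir199b lower with 0.233 (0.184 to 0.293), and Mir199a-2, with 37 and 30 reads, had 0.991 and did not pass. The list held 0.0698% of gene-assigned reads in replicate 2 and 0.0652% in replicate 1, and Mir199a-1 had no uniquely placed read. How many reads of these mesenchymal genes were multiply matched was not tested, so low counts here do not show low levels. Of 4 leukocyte genes 2 were higher (Mir155 and Mir150) and 2 lower (Mir142 and Mir223). Of 3 glial genes only Mir338 passed the minimum, and it was lower with a fold of 0.368 (0.343 to 0.396). The untested Mir219a-1, with 8 and 4 reads, and Mir219a-2, with 7 and 5 reads, had folds of 1.61 and 1.12. Of 7 tested muscle fibre genes 4 were higher, 3 did not pass and none was called lower. Those that did not pass were Mir133a-1 (fold 0.735), Mir1a-1 (0.603) and Mir133b (1.05). Mir499, from an intron of the myosin gene Myh7b, drew 1527 reads in replicate 2 against 86 in replicate 1, with a fold of 14.3 (11.5 to 17.9). Mir206 had a fold of 3.40 (3.36 to 3.45). Mir208b of the slow myosin gene Myh7 was under the minimum for testing, with 889 reads in replicate 2 and 5 in replicate 1. It was not among the 4 fibre genes of highest mean level. Mir133a-2 and Mir1b were also untested, with 12 and 1 reads in replicate 2 and 8 and 4 in replicate 1. The fibre list held 6.98% of gene-assigned reads in replicate 2 and 2.21% in replicate 1, of which Mir206 alone held 6.70% and 2.06%. The Mir1a and Mir133a genes of this list have identical copies, and their multiply matched reads are left out. The part of a different mix of cells in the members' folds was not tested.

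**Figure D4:**
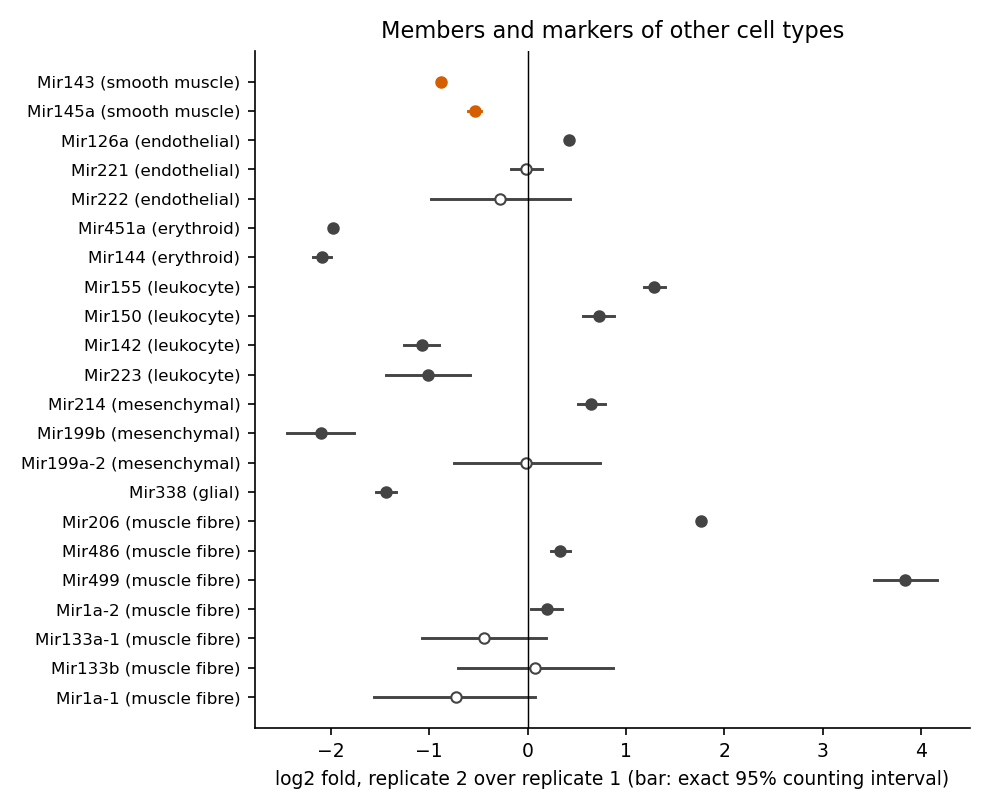
Log2 fold of replicate 2 over replicate 1 (horizontal) with its exact 95% counting interval (bars) for Mir143, Mir145a and the tested markers of other cell types; filled points passed the binomial test. The smooth muscle pair lies left of zero at -0.88 and -0.54, Mir126a and Mir206 right of it at 0.42 and 1.77, and the erythroid Mir451a and Mir144 far left, at -1.98 and -2.09.

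Other microRNAs switched on by serum response factor gave folds on both sides of 1. The 5 listed genes were Mir1a-1, Mir1a-2, Mir133a-1, Mir133a-2 and Mir486. All 5 are also in the muscle fibre list, so their counts and folds are the same as there. Of the 4 that passed the minimum, 2 were higher, none was called lower and 2 did not pass. Over all genes 33.3% were higher and 29.7% lower. Mir486 was higher with a fold of 1.26 (1.18 to 1.34), as was Mir1a-2 with 1.14 (1.03 to 1.27). Mir133a-1, with 43 and 47 reads, had 0.735 (0.475 to 1.14), and Mir1a-1, with 24 and 32 reads, had 0.603 (0.340 to 1.06). The median log2 fold of the 4 was -0.13. The Mir1a and Mir133a genes have identical copies, so their counts cover only the reads placed at 1 locus. How many reads of Mir486 were multiply matched was not tested.

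A list of 10 microRNAs from other loci that are known to shape the contractile or growing state of smooth muscle was compared likewise. Of its 9 tested members 2 were higher, 1 was lower and 6 did not pass, beside 33.3% higher and 29.7% lower over all genes. Mir221 and Mir222 are also in the endothelial list. Mir24-1, 1 of the 2 higher genes, had 61 reads in replicate 2 and 20 in replicate 1. It gives the same mature microRNA as another locus. How many reads of the listed genes were multiply matched was not tested. The median log2 fold of the 9 was -0.01. Mir21a, which rises in injured vessels, was the lower gene, with 12415 reads in replicate 2 and 14161 in replicate 1 and a fold of 0.704 (0.688 to 0.722), close to that of Mir145a. Mir10a, with 11586 and 9159 reads, had a fold of 1.02 (0.989 to 1.04). Mir146, as M21 names the gene of miR-146a, a microRNA of inflammatory signalling, was higher with 3.13 (2.73 to 3.60).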

How the data were processed

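MicroRNA reads were counted in 2 libraries of mouse gastrocnemius (total RNA, inserts under 30 bases per the labels). The deposited tables hold raw counts per microRNA gene, mm10 build and M21 annotation, per the deposited read-me text. The sources used here do not name the aligner or the counter. From their layout, the 3 count columns without a header were read as unstranded, strand of the gene and opposite strand, and the strand of the gene was used. Library sizes leave out the 4 summary rows. All 2202 identifiers matched GENCODE M21.

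Setting replicate 2 against replicate 1 makes groups of 1 library and leaves no residual degrees of freedom, so edgeR's quasi-likelihood test of that difference could not be fitted. TMM factors and the common dispersion came from edgeR 4.0.16 and size factors from DESeq2 1.42.0 (R 4.3.3), and binomial and Fisher's exact tests from scipy 1.17.1 (Python 3.11.15), with Benjamini-Hochberg adjustment at 0.05 over all genes with at least 10 reads in both libraries. The procedure was tested on simulated counts that held counting error only, so that test does not cover the spread between real libraries. Members and lists were chosen with earlier results of these data known. Named were the members, Mir145b, detected genes within 500 kb, 3 genes on either side in level, 3 nearest in fold, the 3 widest and 3 narrowest pairs, and up to 4 genes per list. The muscle fibre list and the list of smooth muscle phenotype genes are given beyond 4 genes. Mir486b of the muscle fibre list matched no gene by that symbol.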

Additional observations from a re-analysis of the deposited data

How the results depend on the processing

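Both members stayed lower in replicate 2 under all 8 alternatives tried for their folds. Under the 7 that kept the binomial test they also passed it, with folds of 0.457 to 0.539 for Mir143 and 0.581 to 0.685 for Mir145a. When the common dispersion was used in edgeR's exact test, the folds were 0.542 and 0.689 and neither passed (adjusted p = 1 for both), and 4 genes passed in place of 172, with 19 at an unadjusted p under 0.05. The 4, named after their values were seen, were Mir499, Mir375, Gm26117 and Mir182. The count of genes passing the binomial test was otherwise 152 to 180. Its division was 91 higher and 81 lower with TMM, 67 and 108 with the members out of the library size, and 58 and 119 with scaling by all reads of the table, where the median log2 fold of all genes was -0.23. The mean share of Mir143 was 1.56% and that of Mir145a 0.0328% with multiply matched reads in the denominator. Without regard to strand the mean shares were 12.96% for Mir143 and 0.274% for Mir145a, since fewer reads then count for any gene. The main values were 8.95% and 0.190%. Leaving out a replicate gave 6.10% to 11.8% for Mir143, 0.151% to 0.229% for Mir145a and 5.34 to 5.69 for their log2 ratio. It leaves no comparison of libraries. No paired analysis was possible because the design has 1 group.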

Other observations

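Of the 79 pairs of adjacent microRNA genes, 8 had both members called lower in replicate 2 and 16 had both called higher. Of single genes 29.7% were called lower and 33.3% higher, but a joint call of 2 genes is a different measure. The pair counts are therefore not read as many or few. These counts depend on the scaling, as the division of all called genes was 91 higher and 81 lower with TMM and 58 and 119 with scaling by all reads of the table. Beside Mir143 with Mir145a, the 8 were Mir451a with Mir144, Mir532 with Mir188, Mir17 with Mir18, Mir93 with Mir106b, Mir15b with Mir16-2, Mir376b with Mir376a and Mir15a with Mir16-1. These pairs were named after their values were seen. In 51 of the 79 pairs the folds of both members had the same sign, and no expected count was worked out.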
